A study of Mus musculus with 6 samples.

Results

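Peaks of the zinc finger factor KLF3 and of 2 of its mutants were examined at 10 genes of the ETS family, Ets1, Ets2, Elk1, Elk3, Elk4, Etv6, Gabpa, Fli1, Erf and Erg. A peak was a member when the authors' table of all peaks named any of these as its nearest gene, which selected 14 of 22188 peaks, at 6 of the 10 genes. Klf3-/- murine embryonic fibroblasts (MEFs) of the C57BL/6 strain were rescued with Klf3-V5, with a V5-tagged ΔDL mutant or with a V5-tagged DBD construct, so that every cell line lacked endogenous Klf3. ΔDL carries a changed CtBP contact motif, the motif through which KLF3 reaches its corepressor, and DBD keeps the zinc fingers without most of the rest of the protein. Each construct was delivered by a retrovirus and kept as a stable clonal line, so the construct and the clone cannot be told apart. Chromatin was precipitated with an anti-V5 antibody in 2 replicates per construct, each with a paired input, and sequenced.

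ETS factors share a winged helix-turn-helix domain that reads a GGAA core, and many of them respond to growth factor signals. Elk1, Elk3 and Elk4 are the ternary complex factors, which sit beside serum response factor at serum-induced genes. Ets1 and Ets2 are activators, Erf and Etv6 are repressors, Fli1 and Erg are closely related factors of endothelial and blood cells, and Gabpa carries the DNA-binding domain of the GABP complex, which acts at many housekeeping promoters. KLF3 binds CACCC-type and GC-rich boxes.

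A height is the log2 of the tags that the authors counted in 400 bp around a peak with both replicates combined, per 100 M tags. The combined totals were 23.3 M tags (KLF3), 11.8 M (ΔDL) and 16.0 M (DBD), so that a single tag is worth 4.29, 8.45 and 6.23 normalized tags. Even cover of the chromosomes would give 15.1 normalized tags in 400 bp, a height of 4.01. Peaks were called on each replicate alone, and the totals behind those 6 lists ran from 1.77 M tags in ΔDL replicate 1 to 18.1 M in KLF3 replicate 2. A called peak had at least 4 tags in ΔDL replicate 1 and at least 13 in KLF3 replicate 2. Heights have no replicate error. Intervals on differences are 95% intervals computed from the tags with the Clopper-Pearson method and cover counting error only.

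The sequences below are the central 100 bases of 7 member peaks on the plus strand of mm9, with matches to a KLF core on either strand in capitals. The cores of the CACCC type were ACACCC on the one hand and CCACCC on the other, and those of the GC-rich type were either ACGCCC or else CCGCCC. The Ets1 and Erf promoters follow the rule for promoter peaks, and the other 5, chosen after their values were seen, show 4 of the other KLF3 peaks that hold cores and a ΔDL and DBD peak that holds none.
Ets1 promoter, chr9:32503404-32503503: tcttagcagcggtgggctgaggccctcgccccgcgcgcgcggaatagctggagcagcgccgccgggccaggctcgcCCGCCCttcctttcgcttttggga
Erf promoter, chr7:26035732-26035831: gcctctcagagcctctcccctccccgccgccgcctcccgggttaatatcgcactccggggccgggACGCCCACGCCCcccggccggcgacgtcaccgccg
Elk4 intron 1, chr1:133904487-133904586: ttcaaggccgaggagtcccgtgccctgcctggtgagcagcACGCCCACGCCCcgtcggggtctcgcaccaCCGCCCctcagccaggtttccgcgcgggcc
Erf intron 1, chr7:26034379-26034478: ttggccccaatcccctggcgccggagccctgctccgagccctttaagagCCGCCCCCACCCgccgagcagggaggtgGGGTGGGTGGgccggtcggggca
Fli1 intron 1, chr9:32326403-32326502: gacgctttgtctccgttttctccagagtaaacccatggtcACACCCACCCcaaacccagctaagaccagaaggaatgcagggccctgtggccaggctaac
Elk3 intron 1, chr10:92750644-92750743: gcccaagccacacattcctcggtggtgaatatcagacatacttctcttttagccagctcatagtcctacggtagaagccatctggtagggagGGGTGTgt
Ets1 upstream, chr9:32490075-32490174: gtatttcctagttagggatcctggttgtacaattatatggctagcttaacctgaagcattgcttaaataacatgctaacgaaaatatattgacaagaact

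The Ets1 promoter held the strongest of the 14 peaks. It lies on chromosome 9 from 32503254 to 32503654, with its centre 173 bp before the start site, in sequence of 68.1% G+C. KLF3 reached a height of 9.58 there, ΔDL 7.91 and DBD 5.33, from 178, 28 and 6 tags. The KLF3 height exceeded ΔDL 3.18-fold, a log2 difference of −1.67 (interval −2.32 to −1.11), and DBD 19.0-fold, a difference of −4.25 (−5.82 to −3.20). Both intervals lie wholly below 0. KLF3 replicates 1 and 2 called the peak with 19 and 66 tags, which the authors' scaling turns into near-equal scores of 348 and 365. ΔDL replicate 2 called a peak of 15 tags from 32503193 to 32503323. That call overlaps the edge of this interval but neither of the KLF3 calls, which begin at 32503379 and 32503407. ΔDL replicate 1 and both DBD replicates called no peak in the interval.

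A pair of peaks lay in intron 1 of Ets1, and their ΔDL intervals overlap. The nearer, from 32516853 to 32517253 and 13.4 kb into the gene, had heights of 7.97 (KLF3), 7.94 (ΔDL) and 4.29 (DBD). The ΔDL difference there was −0.03 (−0.78 to 0.60), which leaves room for changes of either sign. KLF3 scores at this peak were 476 in replicate 1 and 133 in replicate 2, the widest gap between KLF3 replicates among the 10 peaks listed for KLF3. The other, from 32522058 to 32522458 and 18.6 kb into the gene, had heights of 8.03, 6.96 and 5.27. Its ΔDL difference was −1.07 (−2.08 to −0.26). DBD was lower than KLF3 at both, by differences of −3.68 and −2.76. Neither has a KLF core in its central 100 bp, although both have at least 1 in the 400 bp.

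Upstream and far downstream of Ets1, ΔDL had the highest of the 3 heights as deposited, which scaling on shared peaks (described with the counts) turned at the upstream peak. The peak from 32489925 to 32490325, 13.5 kb before the start site used in the table, is listed for ΔDL and DBD and not for KLF3. Its heights were 6.88 (KLF3), 7.72 (ΔDL) and 7.05 (DBD), from 27, 24 and 21 tags. The authors' RefSeq annotation calls it intergenic, whereas in GENCODE it lies within Ets1, whose annotated gene begins farther upstream at 32443806. This was the only member peak called in both DBD replicates, with 10 tags in each, and KLF3 replicate 1 called it with 8. The ΔDL interval of −0.05 to 1.66 and the DBD interval of −0.72 to 1.05 both include 0. After that scaling the ΔDL difference was −0.22. A second ΔDL peak, from 32874094 to 32874494, lies 371 kb beyond the start site within an L1 element of the L1MA6 type. It had heights of 5.79, 7.64 and 6.47, from 12, 23 and 14 tags, and was not called in either KLF3 replicate. The ΔDL difference there was 1.85 (0.85 to 3.06), the highest of the 14, and 0.79 (−0.21 to 2.00) after that scaling.

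Fli1 is the neighbour of Ets1, and the annotated starts of the pair are 94.8 kb apart and point away from each other. The Fli1 peak in intron 1, from 32326253 to 32326653 and 22.5 kb into the gene, was listed for KLF3. Its heights were 7.74 (KLF3), 6.68 (ΔDL) and 5.37 (DBD). ΔDL differed by −1.06 (−2.10 to −0.12) and DBD by −2.37 (−4.00 to −1.27). Its centre holds 2 overlapping KLF cores, as printed above, and its mean conservation score was 0.53, against a median of 0.09 over the table peaks that have a score.

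The other 2 peaks assigned to Fli1 lie between the genes and are listed for ΔDL alone. From 32383621 to 32384021, 34.9 kb upstream in an ORR1B1 repeat, the heights were 6.41 (KLF3), 7.00 (ΔDL) and 6.43 (DBD). From 32423634 to 32424034, 74.9 kb upstream, they were 6.10, 7.59 and 6.73. As deposited, the ΔDL interval lay above 0 at the second alone (0.52 to 2.58, from 15 KLF3 and 22 ΔDL tags). After scaling on shared peaks the ΔDL differences were −0.47 at the first and 0.43 (−0.54 to 1.52) at the second. By GENCODE that second peak is nearer to the upstream start of Ets1, 19972 bp away, so its assignment to Fli1 rests on the start sites used. All 4 member peaks that are not listed for KLF3 thus fall to Ets1 and Fli1 on chromosome 9. They had 35.7% to 49.4% G+C, below the 50.1% to 78.3% of the 10 peaks listed for KLF3. The table as a whole differs in the same direction, with median G+C of 37.9% in peaks not listed for KLF3 and 50.9% in those listed.

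**Figure D1:**
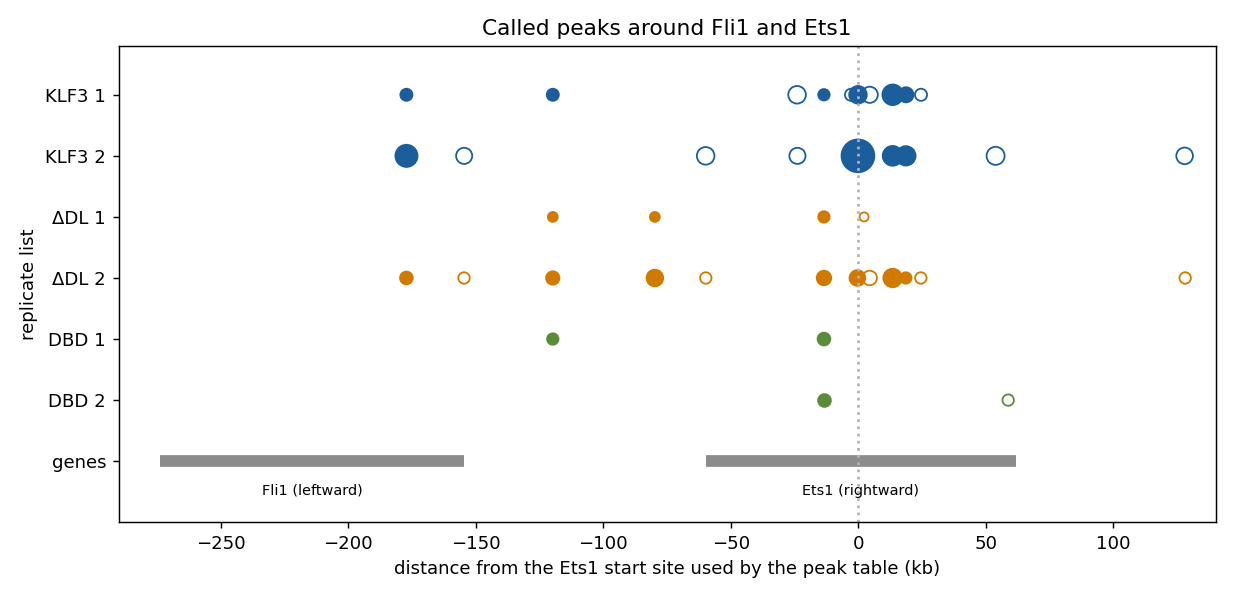
Called peaks around Fli1 and Ets1 in the 6 replicate lists, by distance (kb) from the Ets1 start site used in the table, with dot area proportional to tags; filled dots overlap a peak of the table and open dots do not. Grey bars are the GENCODE genes, and the Ets1 peak 371 kb downstream is beyond the axis. The cluster at 0 is largest in KLF3 replicate 2, with 66 tags, while the DBD lists hold 3 filled dots.

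Ets2 had a peak on either side, neither of them at its promoter. The upstream peak on chromosome 16 from 95880418 to 95880818, 43.4 kb before the start site, is listed for KLF3 and ΔDL. Its heights were 8.11 (KLF3), 8.59 (ΔDL) and 4.18 (DBD). The KLF3 replicates called it with 15 and 35 tags and the ΔDL replicates with 7 and 29. The ΔDL difference was 0.48 (−0.11 to 1.04), the highest among the 10 peaks listed for KLF3, and the DBD difference was −3.93 from 64 KLF3 and 2 DBD tags. The downstream peak, from 95950431 to 95950831, had heights of 8.46, 7.49 and 4.67. There ΔDL was lower by a difference of −0.97 (−1.74 to −0.26), just short of the 2-fold limit used for the counts. The 2 Ets2 peaks therefore differed in ΔDL while both were near the level of even cover in DBD.

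Among the ternary complex factors, Elk3 and Elk4 each had a single peak and Elk1 had none. The Elk4 peak on chromosome 1 from 133904337 to 133904737 lies 355 bp inside the gene, in intron 1, and the authors' detailed annotation calls it a CpG island. Its heights were 8.97 (KLF3), 7.19 (ΔDL) and 5.08 (DBD), from 116, 17 and 5 tags. KLF3 exceeded ΔDL 3.43-fold, a difference of −1.78 (−2.62 to −1.05), and DBD 14.8-fold, a difference of −3.89 (−5.65 to −2.73). The KLF3 replicates called it with 21 and 67 tags and ΔDL replicate 2 with 13.

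The Elk3 peak on chromosome 10 from 92750494 to 92750894 lies in intron 1, 23.2 kb into the gene, and is listed for KLF3 and ΔDL. Its heights were 8.92 (KLF3), 8.38 (ΔDL) and 6.12 (DBD). Both KLF3 replicates called it, with 20 and 41 tags, as did both ΔDL replicates, with 7 and 20. The ΔDL difference of −0.54 (−1.11 to −0.01) was smaller than at Elk4, and the 2 intervals touch between −1.11 and −1.05. It also holds a match to the AP-1 site (TGACTCA or TGAGTCA, either strand) in the central 200 bp.

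Erf, which encodes a repressor, had a peak at its promoter and another in intron 1, both on chromosome 7 and both listed for KLF3 alone. The promoter peak, from 26035582 to 26035982, had heights of 8.08 (KLF3), 6.13 (ΔDL) and 4.93 (DBD). The intron peak, from 26034229 to 26034629 and 1348 bp inside the gene, had heights of 7.47, 5.57 and 3.17, the last from 1 tag. These were the member peaks with the largest falls in ΔDL, with differences of −1.95 (−3.25 to −0.91) and −1.90 (−3.75 to −0.72), from 8 and 5 ΔDL tags. Neither was called in any ΔDL or DBD replicate. They are also the most conserved of the 14, with mean scores of 0.95 and 0.78. The KLF3 replicates called the Erf promoter with 11 and 36 tags and the intron peak with 9 and 21.

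**Figure D2:**
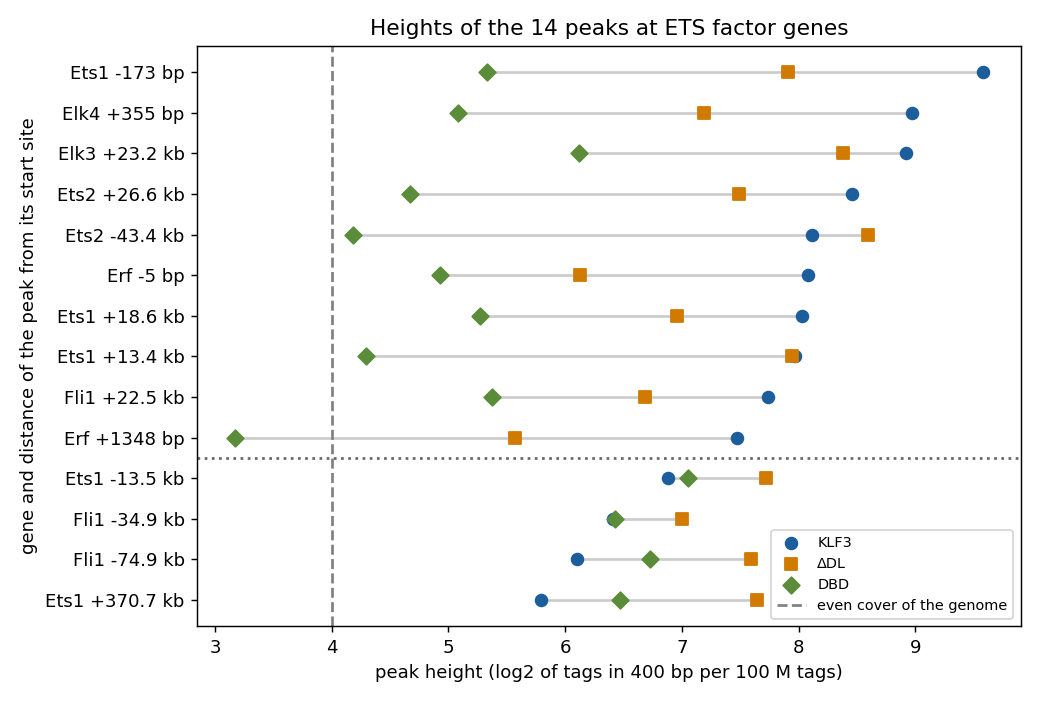
Height of each of the 14 member peaks (log2 of tags in 400 bp per 100 M tags) for KLF3, ΔDL and DBD, with no replicate error since replicates were combined; peaks above the dotted line are listed for KLF3. In those 10 rows DBD lies farthest left, at 3.17 to 6.12, and in the 4 lower rows KLF3 and DBD lie within 0.68 of each other.

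Of the 14 peaks, 6 fell by 2-fold or more from KLF3 to ΔDL and 2 rose by as much. In the table as a whole 14.8% fell and 28.8% rose by this limit. The 6 lower peaks were the Ets1 promoter, the Ets1 peak at 18.6 kb, the Fli1 intron peak, Elk4 and both Erf peaks. The median difference of ΔDL from KLF3 was −0.76 over the members and 0.42 over the table. These figures follow in part from the make-up of the list, since 10 of the 14 members are listed for KLF3, against 14115 of 22188 in the table. Among peaks listed for KLF3 the medians were −1.07 for members and −0.35 for the table, and 6 of 10 members against 23.3% of the table's peaks were at least 2-fold lower. Both higher peaks are among the 4 members not listed for KLF3. Of the table peaks not listed for KLF3, 4844 of 8073 were at least 2-fold higher. The medians there were 1.165 for members and 1.08 for the table.

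The counts depend on how ΔDL and KLF3 are put on the same scale. When the median height of the 2334 peaks listed for all 3 constructs was set equal, ΔDL heights fell by 1.06 relative to KLF3. Then 9 member peaks were at least 2-fold lower and 0 were at least 2-fold higher, against 42.9% and 0.397% of the table. The ΔDL difference turned from positive to negative at 3 peaks, Ets1 at 13.5 kb upstream, Ets2 at 43.4 kb upstream and Fli1 at 34.9 kb upstream. The interval lay above 0 at 0 peaks, against 2 as deposited, and below 0 at 10, against 8. The order of the members is the same on either scale, since the scaling moves every difference by the same amount.

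From KLF3 to DBD, 10 of the 14 peaks fell by 2-fold or more and 0 rose by as much. Of all the peaks listed, 52.6% fell and 3.27% rose by this limit. The 10 lower peaks were the 10 listed for KLF3, with differences from −4.30 to −2.37, and among all peaks listed for KLF3 79.2% were lower by this rule. All 10 intervals lay below 0. The remaining 4, at Ets1 and Fli1, differed by 0.02 to 0.68 with intervals that include 0, and 2 of these differences turned negative under the scaling. Over the table peaks not listed for KLF3 the median difference was 0.44 and 6.06% were lower. The split follows in part from the listing, since the 10 were selected by KLF3 calls and the 4 by ΔDL calls. The intervals cover counting error and do not allow for that selection. Of the 22188 peaks, 2334 are listed for all 3 constructs, and 0 of the 14 members are among them. With 14 peaks, that absence does not set the members apart.

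**Figure D3:**
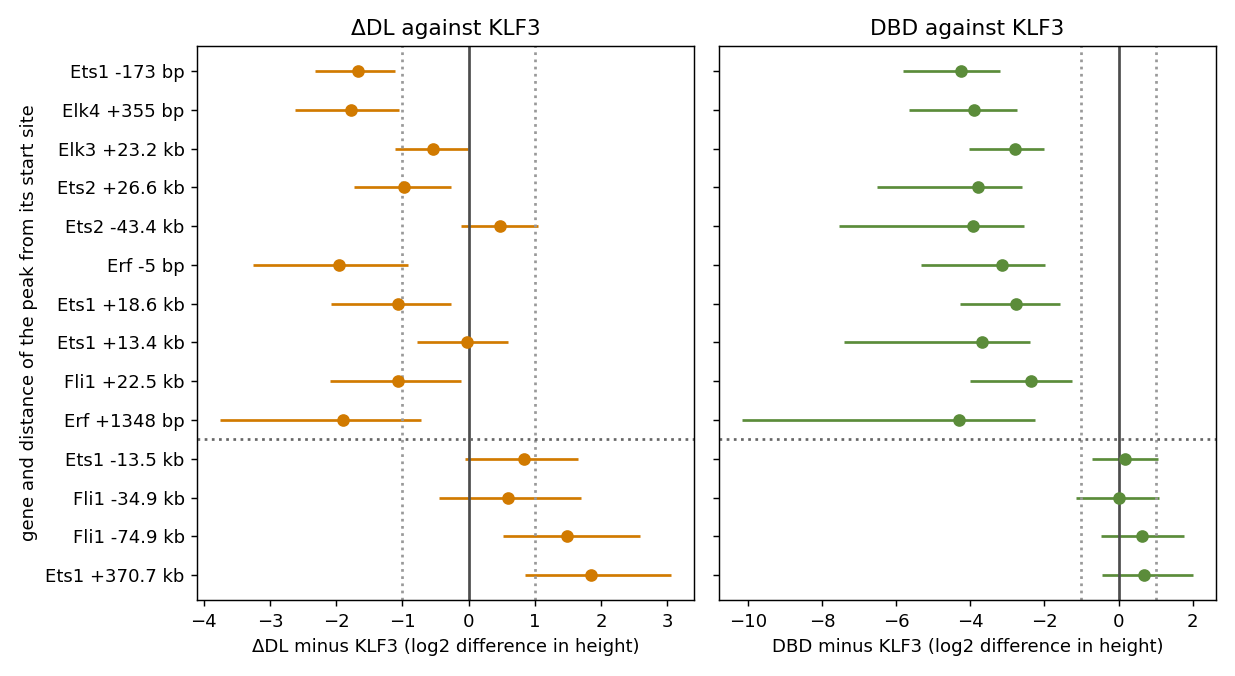
Log2 difference in height of ΔDL (left) and DBD (right) from KLF3 at the 14 member peaks, with 95% intervals that cover counting error only; dotted vertical lines mark 2-fold and peaks above the horizontal dotted line are listed for KLF3. For DBD all 10 upper intervals lie below 0, while for ΔDL they reach from −3.75 to 1.04.

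Near start sites the 4 KLF3 peaks, at Ets1, Elk4 and Erf, were alike in ΔDL. Within 2 kb of a start their ΔDL differences ran from −1.95 to −1.67, with a median of −1.84, and over the 5525 table peaks of that kind the median was −0.72 and 35.9% were at least 2-fold lower. The 6 KLF3 peaks beyond 2 kb ran from −1.07 to 0.48, with a median of −0.76 against −0.02 for 8590 table peaks. The values of the near and far members do not overlap, but their counting intervals do, as at the Ets1 promoter (−2.32 to −1.11) and the Ets1 peak at 18.6 kb (−2.08 to −0.26), and the difference was not tested. The near peaks had 68.1% to 78.3% G+C and the far ones 50.1% to 55.9%. Over the table peaks of these kinds the median G+C was 62.8% and 44.9%. The part of base composition in the ΔDL difference between near and far members was not tested.

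**Figure D4:**
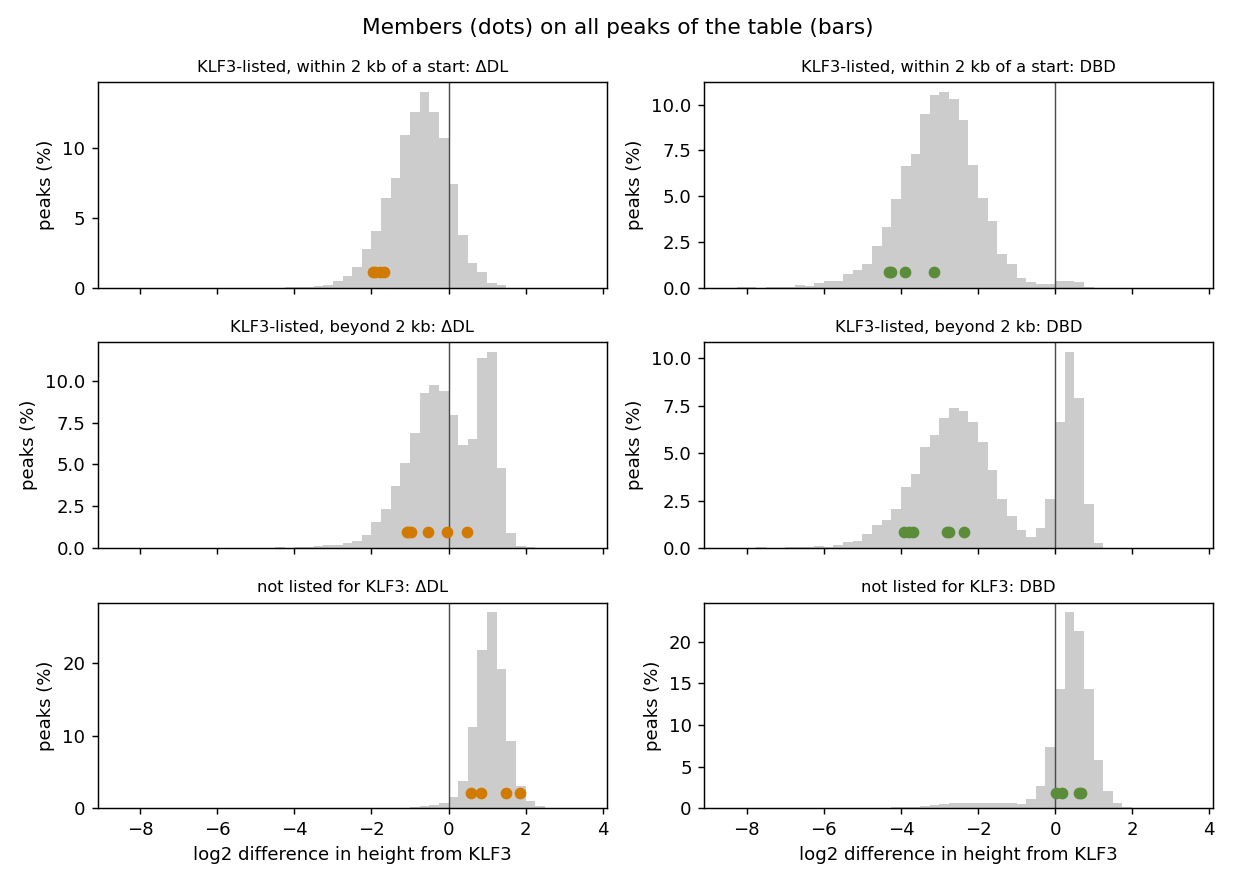
Members (dots) on the distribution of all peaks of the table (grey bars, percent of peaks per 0.25 log2) for ΔDL (left) and DBD (right), by listing for KLF3 and distance to a start site; the horizontal axis is the log2 difference in height from KLF3. The 4 near-start members lie between −1.95 and −1.67 in ΔDL, left of the median of −0.72.

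A peak is listed for a construct when both of its replicates called it, so the listing fixes these counts. Of the 14 member peaks, 10 are listed for KLF3, 6 for ΔDL and 1 for DBD, against 63.6%, 55.2% and 22.3% of all peaks. ΔDL replicate 2 alone had a call overlapping 12, all except the 2 at Erf, although its call at the Ets1 promoter lies beside the KLF3 calls. ΔDL replicate 1 called 6, and the lowest score in its list was 226.6, from 4 tags. At the 6 peaks that ΔDL replicate 2 called and replicate 1 did not, the replicate 2 scores of 78.2 to 205 were all under that minimum. They were under it also at 5 of the 6 peaks that replicate 1 did call, and scores there were 339.8 to 453.1. At this depth a missing call in ΔDL replicate 1 cannot show that a site was weaker.

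**Figure D5:**
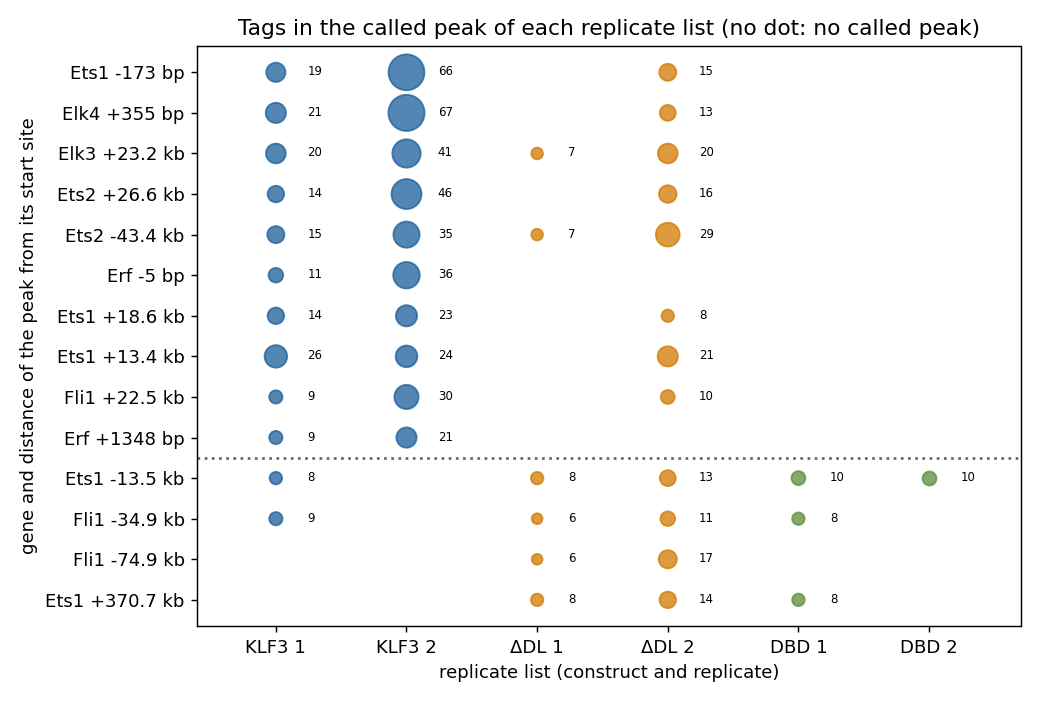
Tags in the called peak of each replicate list at the 14 member peaks, with dot area proportional to tags and the number beside each dot; no dot means that no peak was called. KLF3 replicate 2 reaches 67 tags at Elk4, and the DBD columns hold 4 dots, of 8 to 10 tags.

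Gabpa and Etv6 had called peaks in the replicate lists although neither has a peak in the table. At Gabpa, KLF3 replicate 2 called a promoter peak with 16 tags, on chromosome 16 from 84835156 to 84835298. KLF3 replicate 1 called a peak with 12 tags from 84835499 to 84835621, annotated as 5' UTR. The pair do not overlap, so the site was not carried into the merged list. At Etv6, KLF3 replicate 2 called a promoter peak with 13 tags, the smallest number in that list, on chromosome 6 from 133985734 to 133985876, and ΔDL replicate 2 called an overlapping peak with 8. An intron site of Etv6 about 54.6 kb from the start was called in KLF3 replicate 1 and in ΔDL replicate 2, with 8 and 11 tags. Elk1 and Erg had no peak in any of the 6 lists.

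The promoters of Fli1 and Ets2, and the upstream start of Ets1, were marked in the same partial way. The Fli1 start was called in KLF3 replicate 2, with 16 tags, and in ΔDL replicate 2, with 8. The Ets2 promoter was called in KLF3 replicate 2 alone, with 19 tags. A peak of KLF3 replicate 2 with 19 tags, and of ΔDL replicate 2 with 8, covered the GENCODE start of Ets1 at 32443806. In KLF3 replicate 2, 7 of the 10 members had a called peak within 500 bp of their GENCODE gene start, against 33.2% of 22367 protein-coding genes. In KLF3 replicate 1 the count was 3, against 23.0%, and among the peaks of the table it was 2, against 20.9%. For Ets1 only the start at 32443806 was used, so its promoter peak from 32503254 to 32503654 does not enter any of these counts. In ΔDL replicates 1 and 2 it was 1 and 4, against 5.86% and 23.0%, and in the DBD lists it was 0, against 0.599% and 0.917%. In all, 43 sites at the members were called in some list without overlapping a table peak. They included 20 at Ets1 and 8 at Elk3. That 0 of the 43 were called in both replicates of a construct follows from their selection, since sites called in both enter the table.

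KLF cores were present in the central 100 bp of 9 of the 14 peaks and of 8 of the 10 listed for KLF3. Of all peaks, 40.2% had a core there, and 57.5% of those listed for KLF3. Counting the whole peak, 12 of 14 members held a core, against 13317 of 22188. The exceptions were the Ets1 peak 13.5 kb upstream and the Fli1 peak 34.9 kb upstream, both not listed for KLF3. Elk4 and the Erf promoter each held 2 ACGCCC cores end to end, which can be read in the printed sequences. That arrangement, looked for after it was seen there, occurred in 8 of 22188 peaks. The intron 1 peaks of Fli1 and Erf carried the CACCC type instead, and the Elk3 centre held a single ACACCC core at its edge. The ETS site CCGGAAG was in the central 200 bp of 0 member peaks and 4.44% of all peaks, and the AP-1 site in 3 members, Ets1 at 18.6 kb, Ets1 at 371 kb and Elk3, and 12.3% of all peaks.

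RefSeq promoters of GRCm38.p6, 250 bases before to 50 after a start, were found for 8 of the 10 genes, not for Ets1 or Fli1, and were searched for the same cores. Elk1, which had no called peak, held 4 cores in its promoter, as many as Elk3. Gabpa held 0 cores. A CCGGAAG site was found once each at Gabpa and Elk4. KLF cores numbered 0 to 9 over the 3 starts of Elk4, 3 at Erf, 2 at Ets2, 1 at Etv6 and 0 to 1 at Erg. Of 32851 promoters, 62.2% held a core and 8.86% held CCGGAAG.

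Other genes of the family and its pathway were read from fixed lists. Of 17 further ETS genes, 7 had peaks, 24 in all with 18 listed for KLF3. Etv1 had 9, Etv4 4, Elf2, Elf4 and Etv5 3 each, and Elf1 and Etv2 1 each. Ehf, Elf3, Elf5, Etv3, Etv3l, Fev, Spdef, Spi1, Spib and Spic had none. ΔDL was at least 2-fold lower at 5 of the 24 and higher at 4, and DBD was lower at 16 and higher at 0. Over all peaks, 14.8% were lower and 28.8% higher in ΔDL by this limit, and 52.6% lower and 3.27% higher in DBD. Among all peaks listed for KLF3, 23.3% were lower in ΔDL and 79.2% in DBD. The make-up of the list enters these counts, since 18 of the 24 are listed for KLF3. Of 6 partners and kinases, Mkl1, Mkl2 and Gabpb2 had 7 peaks in all, with Mkl2 at 4, and Srf, Gabpb1 and Mapk3 had none. ΔDL was lower at 0 of these 7 and higher at 1, and DBD was lower at 3 and higher at 0. Of the 7, 4 are listed for KLF3. Neither list was tested against the shares over all peaks.

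Ranked by the highest KLF3 peak of each gene, Elf4, Elf2 and Etv4 came first in these lists. At Elf4, on chromosome X, the heights were 9.54 (KLF3), 8.26 (ΔDL) and 5.86 (DBD). At Elf2, on chromosome 3, 15.4 kb before the start site, they were 9.08, 7.82 and 5.80. At Etv4, on chromosome 11, 46.8 kb before the start site, they were 8.55, 7.96 and 4.25.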

How the data were processed

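Anti-V5 ChIP-seq of Klf3-/- MEFs rescued with KLF3, ΔDL or DBD was used, in 2 replicates per construct. Per the labels and methods, the authors aligned reads to mm9 (Bowtie2 2.0.0) and used HOMER 4.1 to call peaks per replicate over its input. The heights are log2 values that the authors computed from tags in 400 bp of both replicates combined. Peak scores in the lists of single replicates are a tag signal, which the authors scaled to 100 M tags. The G+C fraction and the conservation score of each peak are as deposited. Each deposited record covers both replicates, and input libraries were not analysed here.

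Tags were recovered from each height as 2 to its power, less 1, divided by the worth of a tag and rounded down. The deposited heights carry a random part of up to 1 tag. In the lowest heights the number of peaks rises in steps of 1 tag once 1 is subtracted, and at intervals that also stand in a merged list the tags from both files were within 1 of each other at 99.1% (KLF3) or 99.9% (ΔDL, DBD). Differences are between heights as deposited. Overlap means at least 1 bp. No p-value was computed, since heights have no replicates and there are 2 replicates per construct. Peaks at least 2-fold apart were counted. Members, gene lists and motifs were chosen with earlier results of these data known. All table peaks at the members are named, and the highest KLF3 peak of the 3 top genes of the other lists. A gene of the list of partners and kinases is not reported here. On simulated data the code returned known tags within 1, overlaps and motifs. The G+C of 2000 deposited intervals matched mm9 in 100% within 0.001. GENCODE (mm9) gave gene starts. Scripts ran on pysam 0.24.0, scipy 1.17.1 and pandas 2.3.3 under Python 3.11.15. Scaling, height and distance limits, fold limits, stricter overlap, the upper part of each list and single replicates were tried as alternatives.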

Additional observations from a re-analysis of the deposited data

How the results depend on the processing

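Of 50 alternative values, 31 stayed within the set limits, 18 moved and 1 changed sign. Heights scaled to the same median over shared peaks gave 0 peaks at least 2-fold higher in ΔDL, and median differences of −1.82 for ΔDL and −3.40 for DBD (−0.76 and −2.98 as deposited). With peaks listed for KLF3 only, or with a height of at least 8, 0 peaks were higher in ΔDL. Both limits remove the 4 other members, and the median for DBD was −3.74 and −3.79. The height limit also removes the intron 1 peaks of Fli1 and Erf and the Ets1 peak at 13.4 kb. It left 4 peaks lower in ΔDL and 7 lower in DBD. A 1.5-fold limit gave 4 peaks higher in ΔDL and 2 higher in DBD, and a 3-fold limit 1 higher in ΔDL. With the cores ACACCC and CCACCC alone, 5 peaks held a match.

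Single replicates compare peak scores at the few peaks called for both constructs, 4 and 8 for ΔDL in replicates 1 and 2, and 2 and 0 for DBD. The 8 include the Ets1 promoter, where the ΔDL and KLF3 calls do not overlap each other. Without either replicate, the peaks lower in ΔDL numbered 0 to 2 and those higher 0 to 2, and the median ΔDL difference ran from −0.70 to 0.79. The positive value, without replicate 2, rests on the 4 peaks called in replicate 1 of both ΔDL and KLF3. For DBD, without replicate 2, 0 peaks were lower and the median was −0.44, from 2 peaks at Ets1 and Fli1 that are not listed for KLF3. Without replicate 1 no DBD value could be had. Calls in either ΔDL replicate alone numbered 6 to 12, and in either DBD replicate alone 1 to 3. No paired analysis was possible because the heights combine both replicates and no test was run. Depth limits ΔDL replicate 1 most, at 1.77 M tags.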
